A study of Mus musculus with 18 samples.

Results

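The loss of the testis on 1 side was set against the loss of a single testicular protein, NELL2, in the initial segment and caput of the mouse epididymis. The quantity examined was a difference of changes for each gene on a log2 scale, the change after unilateral orchidectomy minus the change in the Nell2 knockout, or (UOD − contra) − (Nell2 KO − WT). Its members are 12 of the 18 libraries of the series, 3 in each of the 4 groups, chosen by their group labels and not by any measured value. A positive difference means that a gene stood higher, against its own control, after the operation than in the knockout. A negative difference means that it stood lower.

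RNA was sequenced from IS-caput tissue, the initial segment with the caput. UOD is the ipsilateral side and contra the contralateral side of wild-type males that underwent unilateral orchidectomy and were 12 weeks old at sampling. Per the study's methods the operated males were B6D1F1 and the contralateral side of the same mice served as control. Nell2 KO tissue came from untreated Nell2-/- males and WT tissue from untreated wild-type males, both 14 weeks old. The strain background of the Nell2 KO and WT mice is not given in the sources used here. The remaining libraries, sham and bilateral orchidectomy, entered the fit for the estimate of spread, and sham served as a second control. Which animal gave which library is not stated, so p-values measure the spread between these libraries.

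The epididymis receives sperm, testicular fluid and dissolved proteins through the efferent ducts, and signalling by this route is called lumicrine. NELL2 is secreted by germ cells, travels down the lumen and acts on ROS1, a receptor tyrosine kinase of the initial segment epithelium. Downstream of ROS1 the ERK pathway and the ETS factors of the PEA3 family maintain the secretory programme of the segment, including OVCH2, a protease needed for the processing of the sperm protein ADAM3. Removal of the testis withdraws every luminal component from that side, while the knockout withdraws NELL2 and leaves sperm and fluid in place.

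The values are FPKM, fragments per kilobase of transcript scaled to the mapped reads of the library, so the number of reads behind them is unknown. Summed FPKM lay between 650658 and 729074 in the 12 libraries. The value of 1 read relative to sham replicate 1, estimated from the smallest values, lay between 0.722 and 1.01. The lowest correlation of a library with another of its group lay between 0.9806 and 0.9858. Log2(FPKM + 0.1) was fitted with limma, and a gene was called where its Benjamini-Hochberg adjusted p over 17302 tested genes was under 0.05. All log2 values below are on this scale, which understates the change of genes near 0.1 FPKM.

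The targeted gene gave little to check the labels with. Nell2 was listed at 0, 0.0274 and 0 FPKM in Nell2 KO tissue, against 0.130, 0.0302 and 0.0610 FPKM in WT tissue. The 2 ranges did not overlap but all 6 values were near the floor of the measurement, and the difference between KO and WT was not called (log2 −0.64 ± 0.31, adjusted p = 0.13). Nell2 was also low in UOD, at 0.258, 0.287 and 0.355 FPKM, and in contra, at 0.262, 0.369 and 0.135 FPKM. Contra was called above WT (log2 1.02, adjusted p = 0.047), and the difference of changes was not called (0.86 ± 0.45, adjusted p = 0.34). Nell2 lies on chromosome 15 from 95219440 to 95528796 (mm10), and genes within 90 to 100 Mb of that chromosome were called for the difference of changes in 10 of 97 cases, 10.3%, against 4.60% on all other chromosomes. The part of linked flanking sequence in those 10 calls was not tested.

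Both losses changed the tissue widely and the difference between them was smaller. UOD differed from contra in 5987 genes, 34.6% of those tested, of which 3212 (18.6%) were lower and 2775 (16%) higher. Nell2 KO differed from WT in 6286 genes, 36.3%, of which 3211 (18.6%) were lower and 3075 (17.8%) higher. The difference of the 2 changes was called in 804 genes, 4.65%, with 393 negative (2.27%) and 411 positive (2.38%). It exceeded 1 log2 unit in 333 of the 804. At an unadjusted p under 0.05 there were 3026 genes. The sign of the difference was the same in all 81 choices of 1 library from each group for 788 of the 804. Over all tested genes the median difference was −0.00078 and the median of its absolute value was 0.19.

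The 804 genes fell into classes by which of the component changes was called. The largest class, 191 genes, was lower in both UOD and KO and fell further in KO. A further 128 genes were lower in UOD with no call in KO, and 107 were lower in KO with no call in UOD. On the side of higher levels, 130 genes were higher in KO alone, 78 higher in UOD alone and 64 higher in both with the larger change in KO. The changes ran in opposite directions in 65 genes, lower in UOD and higher in KO in 42 and the reverse in 23. Of the 2290 genes lower in both, 220 had a called difference, against 4.65% of all tested genes, and the rest had none.

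**Figure D1:**
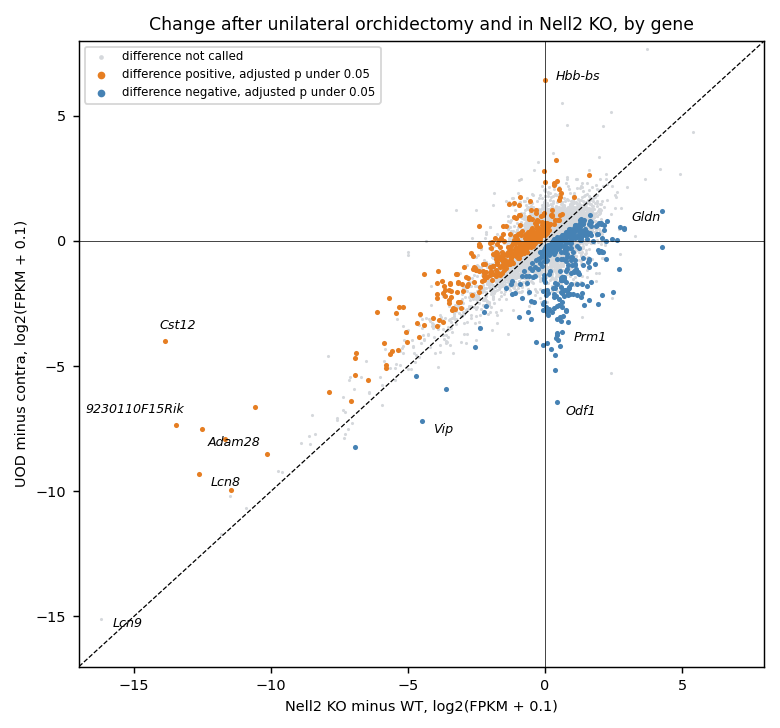
Each point is 1 of 17302 tested genes, with the Nell2 KO minus WT change in log2(FPKM + 0.1) on the horizontal axis and the UOD minus contra change on the vertical axis. Points on the dashed line changed equally; orange points have a called positive difference and blue points a called negative one, with Odf1 and Prm1 far below the line near a KO change of 0 and Cst12, Adam28 and Lcn8 above it at the far left.

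Among genes that reached 10 FPKM in a group, the most negative differences were transcripts of late germ cells and sperm, which were low or listed at 0 on the operated side and present in the knockout. These are RNAs made in the testis, such as those for protamines and transition proteins that compact the sperm nucleus. Of 22 listed sperm and late germ cell transcripts, all tested, 14 had a negative difference and 0 a positive one, against 2.27% and 2.38% of all genes. UOD was lower than contra in 14 (18.6% of all genes). KO was lower than WT in 0 (18.6%) and higher in 2 (17.8%). The median difference of the list was −2.92, against −0.00078 over all genes. With 1 library left out the count lay between 11 and 15, and it was 10 with 0.01 FPKM added before logs.

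The windows before the start of Prm1 and Tnp1 are shown as examples of listed genes that carry the letters TGANNTCA. These letters are a relaxed form of the cAMP response element known from testis promoters. The 150 bases before each start, 5′ to 3′ on the gene's strand, are from RefSeq on GRCm38.p6, with the match in capitals. Prm1 lies at chr16:10796824-10796973 on the minus strand and Tnp1 at chr1:73015900-73016049 on the minus strand.
Prm1: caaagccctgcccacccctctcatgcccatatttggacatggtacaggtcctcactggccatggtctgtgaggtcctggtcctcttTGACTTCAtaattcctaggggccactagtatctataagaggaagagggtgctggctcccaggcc
Tnp1: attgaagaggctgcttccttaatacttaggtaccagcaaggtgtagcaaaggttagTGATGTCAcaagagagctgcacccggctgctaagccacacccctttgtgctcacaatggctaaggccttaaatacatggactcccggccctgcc
The match begins 64 bases before the start of Prm1 and 94 bases before the start of Tnp1. In windows of 250 bases before to 50 after the start, searched on both strands, TGANNTCA was found in 10 of the 19 listed sperm genes that have a window, 52.6%, against 12.6% of 13565 tested genes with one. The exact element TGACGTCA, searched first, was found in 0 of the 19 and in 3.04% of all windows. The relaxed form was added after that result was seen, so the count is a description. It also stood before Akap3, Hspa1l, Spata3 and Meig1, whose differences were not called.

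Prm1, the gene of protamine 1, stood at 1.16, 0.780 and 0.332 FPKM in UOD, against 19.6, 14.0 and 10.5 FPKM in contra. In Nell2 KO it stood at 42.3, 35.7 and 46.9 FPKM, against 37.2, 23.1 and 26.5 FPKM in WT. The UOD libraries lay apart from the other 9, while the KO and WT ranges overlapped. Its difference of changes was −4.74 ± 0.44 (adjusted p = 1.2e-05). Prm2, the second protamine gene, stood at 1.87, 0.565 and 3.05 FPKM in UOD, against 20.1, 26.3 and 15.6 FPKM in contra. Prm2 in Nell2 KO was at 89.0, 88.5 and 83.5 FPKM, against 87.3, 51.4 and 61.1 FPKM in WT. Its levels in contra were below those in both untreated groups, and its difference of changes was −4.08 ± 0.76 (adjusted p = 0.0075).

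Odf1, which encodes a protein of the outer dense fibres of the sperm tail, had the most negative difference of all genes named. It was at 0, 0.171 and 0.0729 FPKM in UOD, against 14.4, 17.98 and 11.7 FPKM in contra. Odf1 in Nell2 KO was at 36.2, 33.0 and 29.8 FPKM, against 33.1, 23.1 and 18.7 FPKM in WT. The fitted difference was −6.88 ± 0.39 (adjusted p = 1.8e-08) and depends on the 0.1 FPKM added, since 1 UOD library was at 0. Smcp encodes a cysteine-rich protein of the sperm mitochondrial capsule. It stood at 0.335, 0.112 and 0.383 FPKM in UOD, against 10.6, 19.3 and 9.79 FPKM in contra. Smcp in Nell2 KO was at 70.6, 59.0 and 38.2 FPKM, against 63.0, 41.9 and 28.1 FPKM in WT, and its difference was −5.53 ± 0.48 (adjusted p = 5.7e-06).

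Tnp1, the gene of transition protein 1, was at 0, 0.689 and 0.587 FPKM in UOD, against 11.1, 4.13 and 9.29 FPKM in contra. Tnp1 in Nell2 KO was at 12.2, 11.6 and 14.9 FPKM, against 14.1, 8.40 and 11.7 FPKM in WT. Its UOD values lay below all others, and its WT range overlapped those of contra and KO. The difference was −4.54 ± 0.84 (adjusted p = 0.006). Tnp1, Tnp2 and Prm2 were no longer called with 0.01 FPKM added before logs (adjusted p = 0.149, 0.162 and 0.136), and Tnp2 also not without Nell2 KO replicate 3 or in the 12 libraries alone. Tnp1 was not called under either replicate block, nor Prm2 with the block in both pairs. Oaz3, the germ cell antizyme that curbs polyamine synthesis, had a difference of −4.28 ± 0.48 (adjusted p = 7.5e-05). Dbil5, a testis-specific relative of the acyl-CoA binding protein, had one of −4.20 ± 0.48 (adjusted p = 0.00011). Crisp2, a protein of the acrosome and sperm tail, had one of −4.40 ± 0.40 (adjusted p = 3.1e-06).

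Gapdhs and Akap4 were 2 further listed genes with a negative difference. Gapdhs, the sperm form of a glycolytic enzyme, was at 0.122, 0.184 and 0.157 FPKM in UOD, against 1.05, 1.34 and 2.23 FPKM in contra. In Nell2 KO Gapdhs was at 7.97, 6.70 and 8.24 FPKM, against 5.66, 4.06 and 5.13 FPKM in WT. The 4 groups did not overlap, and the difference was −3.25 ± 0.38 (adjusted p = 6.1e-05). Akap4, which anchors protein kinase A in the fibrous sheath, was at 0, 0.0583 and 0.0744 FPKM in UOD, against 1.06, 0.793 and 0.816 FPKM in contra. Akap4 in Nell2 KO was at 3.28, 3.34 and 4.21 FPKM, against 2.38, 1.83 and 2.11 FPKM in WT. It was 1 of the 2 listed genes called higher in KO than in WT (log2 0.75 ± 0.26, adjusted p = 0.033).

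Not every listed gene moved. Spata3 was at 18.2, 20.9 and 23.5 FPKM in UOD, against 21.7, 19.8 and 21.6 FPKM in contra. Its difference of changes was 0.19 ± 0.18 (adjusted p = 0.66), and it made up much of what remained of the list on the operated side. Summed over the 22 transcripts, FPKM lay between 32.9 and 41.4 in UOD, against 109 and 136 in contra. The sum lay between 320 and 366 in Nell2 KO, against 228 and 342 in WT. The contra sums were below the WT sums, and contra was lower than WT in 6 of the 22 genes (5.88% of all genes). In bulk tissue, fewer sperm and less RNA per sperm cannot be told apart.

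**Figure D2:**
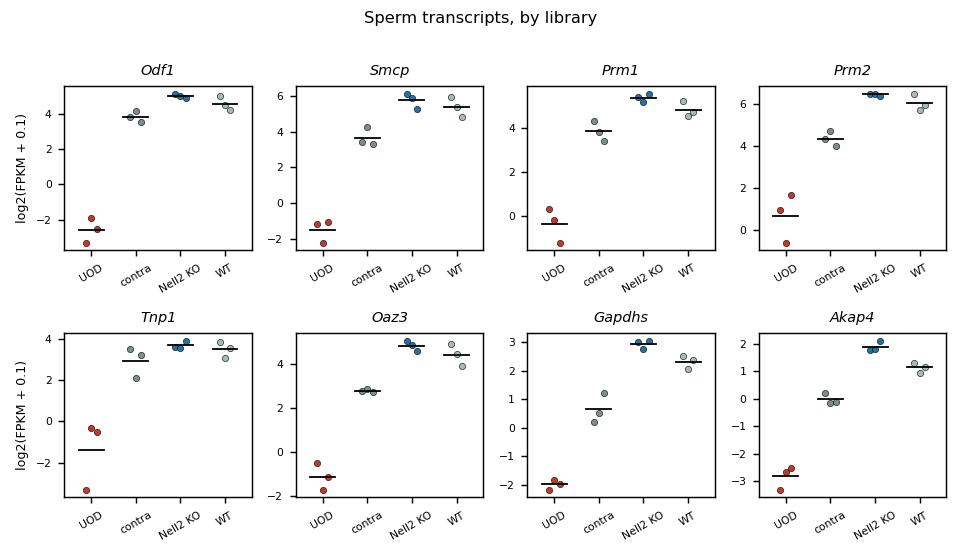
Level of 8 sperm transcripts in log2(FPKM + 0.1) in UOD, contra, Nell2 KO and WT, with 1 point for each of 3 libraries and a line at the group mean. The UOD points lie below all others in every panel. The contra points lie below those of Nell2 KO and WT in every panel except that of Tnp1.

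Several of the most positive differences, among them those of Cst12, Adam28, Lcn8 and Lcn10, belonged to genes of the initial segment epithelium that fell in both tissues and fell further in the knockout. Among 17 listed principal cell genes, 6 had a positive difference (2.38% of all genes) and 1 a negative one (2.27%), with a median of 0.68. UOD was lower than contra in 14 of the 17 and KO lower than WT in 14 (18.6% of all genes in each). Leaving out 1 library gave between 4 and 6 positive calls.

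Cst12, a cystatin of the initial segment, was at 355, 326 and 214 FPKM in UOD, against 4540.5, 4679 and 4848 FPKM in contra. In Nell2 KO it was listed at 0.378, 0 and 0 FPKM, against 2405, 2460.0 and 2748 FPKM in WT. The operated side kept 6.36% of the contra mean, and the knockout 0.00497% of the WT mean. The fitted difference was 9.87 ± 0.63 (adjusted p = 1.3e-06), a value that depends on the 0.1 FPKM added because 2 KO libraries were at 0.

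Adam28, a membrane metalloprotease gene, was at 6.86, 6.40 and 5.51 FPKM in UOD, against 1089, 1151 and 1189.9 FPKM in contra. In Nell2 KO Adam28 was at 0.121, 0.1002 and 0.0961 FPKM, against 1149.6, 1201 and 1220.4 FPKM in WT. UOD and KO did not overlap while the 2 control ranges did, and the difference of changes was 5.005 ± 0.125 (adjusted p = 7.6e-14). The uncharacterised gene 9230110F15Rik was at 10.5, 10.8 and 5.72 FPKM in UOD, against 1389.6, 1439 and 1527 FPKM in contra. It was at 0, 0.175 and 0 FPKM in Nell2 KO, against 1488, 1589.7 and 1632 FPKM in WT. The share of control kept by 9230110F15Rik was 0.622% in UOD and 0.00371% in KO.

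Teddm1a, a gene for an epididymal membrane protein, was at 22.7, 28.4 and 24.9 FPKM in UOD, against 2535, 2483 and 2576 FPKM in contra. Teddm1a in Nell2 KO was at 1.88, 1.81 and 1.32 FPKM, against 2633, 2774 and 2671 FPKM in WT. It kept 1.001% of control in UOD and 0.0619% in KO, with a difference of 3.95 ± 0.25 (adjusted p = 2.8e-07). Lcn8, a lipocalin that carries small hydrophobic molecules, was at 15.5, 15.6 and 24.0 FPKM in UOD, against 11922, 10861 and 11193 FPKM in contra. Lcn8 in Nell2 KO was at 1.88, 2.71 and 2.09 FPKM, against 13912, 14559 and 14634 FPKM in WT. Its difference was 3.32 ± 0.22 (adjusted p = 2.8e-07).

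Lcn10 and Emb kept a sizeable part of their control level on the operated side. Lcn10, a neighbouring lipocalin gene, was at 261, 288 and 252 FPKM in UOD, against 1636, 1644 and 1677 FPKM in contra. In Nell2 KO Lcn10 was at 35.6, 40.2 and 49.7 FPKM, against 1595, 1689.5 and 1669 FPKM in WT. The shares of control were 16.2% in UOD and 2.53% in KO, and the difference was 2.68 ± 0.15 (adjusted p = 1.3e-08). Emb, which encodes embigin, a chaperone of monocarboxylate transporters, was at 15.1, 15.4 and 13.7 FPKM in UOD, against 94.0, 87.4 and 93.4 FPKM in contra. Emb in Nell2 KO was at 2.34, 2.69 and 2.64 FPKM, against 95.0, 98.8 and 93.8 FPKM in WT. The control ranges overlapped while UOD and KO lay apart, with a difference of 2.55 ± 0.10 (adjusted p = 3.5e-11).

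Col6a4, a collagen VI chain gene, had a difference of 3.43 ± 0.24 (adjusted p = 2.1e-07). Was, which encodes an actin regulator of blood cells, had one of 2.14 ± 0.23 (adjusted p = 2.6e-05). Fga, the fibrinogen alpha chain gene, had one of 2.23 ± 0.27 (adjusted p = 0.00011). Fga differed from the genes above in that it was not called lower in UOD, where it stood at 11.1, 13.7 and 16.2 FPKM, against 17.4, 20.6 and 18.7 FPKM in contra. In Nell2 KO Fga stood at 2.03, 1.47 and 2.35 FPKM, against 13.9, 14.2 and 11.4 FPKM in WT. For Adamdec1, a secreted metalloprotease, the positive difference lay partly between the controls. That of Ffar2, a receptor for short-chain fatty acids, lay mostly between them. UOD and KO did not differ by call in Ffar2 (log2 0.23, adjusted p = 0.59). Ffar2 was at 0, 0 and 0.0630 FPKM in UOD, against 2.33, 2.90 and 3.68 FPKM in contra, while it was at 0 in all 3 KO libraries and at 10.9, 12.8 and 12.4 FPKM in WT. Contra was lower than WT in Adamdec1 (log2 −1.51, adjusted p = 0.00029) and in Ffar2 (log2 −2.00, adjusted p = 0.00013). The difference of Ffar2 was not called with 0.01 FPKM added before logs (adjusted p = 0.0529). H2-DMb2 and Apobec3, also among the most positive, were called in 10 and 17 of 23 alternatives. Apobec3 was not called without contra replicate 2, UOD replicate 2 or WT replicate 2 (adjusted p up to 0.153 over all alternatives).

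The same direction held among genes that fell in both tissues. Of 1484 such genes with both controls at 10 FPKM or more, the share of control that remained was higher in UOD in 944. The difference was called positive in 141 of the 1484 (2.38% of all genes) and negative in 20 (2.27%). In 73 genes the mean was under 10% of control in both tissues. Of these 55 kept a higher share in UOD, and the median share was 1.996% in UOD and 0.821% in KO. The difference was called positive in 23 and negative in 2 of the 73, against 2.38% and 2.27% of all genes. Among the 28 under 1% in both, the medians were 0.289% in UOD and 0.0404% in KO, with 6 positive calls and 1 negative.

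**Figure D3:**
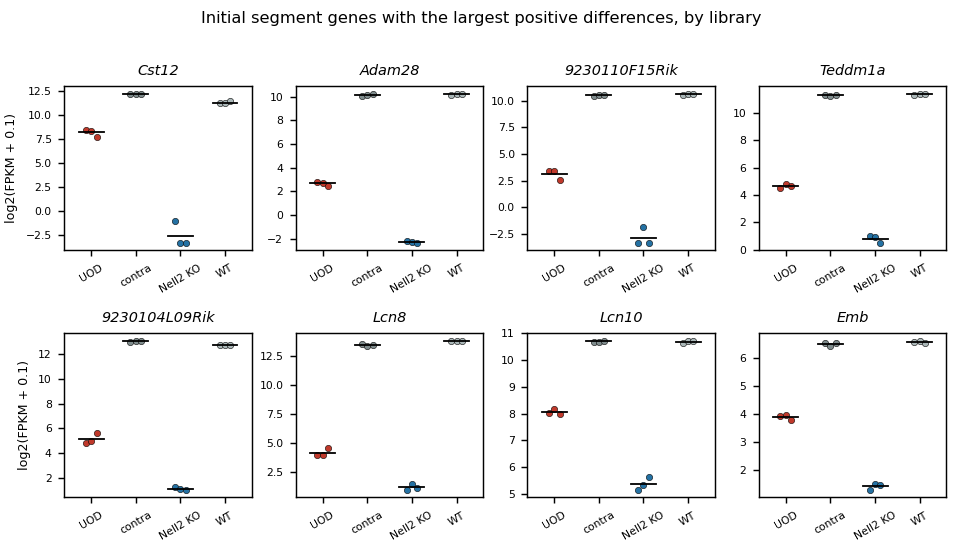
Level of 8 initial segment genes in log2(FPKM + 0.1) by group, with 1 point for each library and a line at the group mean. UOD points lie between the controls at the top and the Nell2 KO points at the bottom in every panel, with the widest gap between UOD and KO in Cst12.

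Secretory gene families of the segment were counted in the same way. Of 37 tested β-defensin genes, which encode small cationic antimicrobial proteins, 3 had a positive difference (2.38% of all genes) and 0 a negative one (2.27%), with a median of 0.11. Defb18 was at 8775, 8923 and 6884 FPKM in UOD, against 8422, 9309.6 and 8474 FPKM in contra. Defb18 in Nell2 KO was at 2169, 2445 and 2750.4 FPKM, against 8261, 8686 and 7725 FPKM in WT. Against these controls it was called lower in the knockout alone, with a difference of 1.65 ± 0.15 (adjusted p = 3.1e-06). In sham Defb18 was at 14221, 11071 and 12099 FPKM, above every UOD value. Contra was also called lower than sham (log2 −0.51, adjusted p = 0.0053). The difference kept its call in 23 of 23 alternatives, sham in place of contra among them. Defb20 kept 53.7% of control in UOD and 21.7% in KO, with a difference of 1.298 ± 0.171 (adjusted p = 0.00025). Defb25 kept 0.283% in UOD and 0.0928% in KO, with a difference of 1.62 ± 0.33 (adjusted p = 0.01), and was not called with a replicate block (adjusted p up to 0.0915).

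Of 12 tested lipocalin genes 3 had a positive difference (2.38% of all genes), Lcn8, Lcn10 and Lcn2. Lcn2, an iron-siderophore carrier, kept its call in 7 of 23 alternatives. Of 10 tested cystatin genes, inhibitors of cysteine proteases, 3 were positive. They are Cst12, 9230104L09Rik at 3.74 ± 0.19 (adjusted p = 7.2e-09) and Cst11, called in 7 of 23 alternatives. Rnase10, a secreted RNase A family member, kept 0.1004% of control in UOD and 0.0330% in KO, with a difference of 1.52 ± 0.28 (adjusted p = 0.0054). Lcn5, the retinoic acid carrier, was higher in both tissues and its difference was not called (−0.73 ± 0.59, adjusted p = 0.58).

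The relay from NELL2 to ROS1 and OVCH2 showed no called difference of changes. Of 9 tested relay genes 0 were called in either direction. Ros1 was at 45.4, 37.5 and 41.9 FPKM in UOD, against 67.8, 73.1 and 62.6 FPKM in contra. In Nell2 KO Ros1 was at 34.4, 32.4 and 32.8 FPKM, against 62.4, 67.8 and 68.8 FPKM in WT. Both were below their controls without overlap, with a difference of 0.29 ± 0.11 (adjusted p = 0.18). Ovch2 was at 22.3, 23.9 and 28.4 FPKM in UOD, against 841, 854 and 876 FPKM in contra. Ovch2 in Nell2 KO was at 41.3, 31.1 and 28.7 FPKM, against 919, 1007 and 1044 FPKM in WT. It kept 2.90% of control in UOD and 3.40% in KO, with a difference of −0.22 ± 0.16 (adjusted p = 0.53). Set directly against KO, UOD was called higher in Ros1 (log2 0.32, adjusted p = 0.0095) and lower in Ovch2 (log2 −0.43, adjusted p = 0.013).

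Of 19 tested ERK targets and feedback genes, 16 were lower in UOD and 16 in KO (18.6% of all genes in each), and 3 had a positive difference (2.38%). Etv5, a PEA3 family factor, was at 1.99, 2.24 and 1.80 FPKM in UOD, against 172, 189.6 and 175 FPKM in contra. Etv5 in Nell2 KO was at 1.44, 1.39 and 1.502 FPKM, against 200.02, 213 and 209 FPKM in WT. The tested tissues did not overlap, and the difference was 0.66 ± 0.12 (adjusted p = 0.004). Dusp6, the phosphatase that inactivates ERK, was at 4.64, 4.44 and 4.29 FPKM in UOD, against 65.3, 61.6 and 65.1 FPKM in contra. Dusp6 in Nell2 KO was at 2.96, 3.23 and 4.05 FPKM, against 82.8, 86.1 and 81.8 FPKM in WT, with a difference of 0.77 ± 0.17 (adjusted p = 0.013). Dusp5, a nuclear phosphatase of the same family, had a difference of 0.72 ± 0.15 (adjusted p = 0.0088). With sham in place of contra the differences of Dusp6 and Dusp5 were not called (adjusted p = 0.0775 and 0.11). Etv1 and Etv4 fell in both tissues with differences of −0.05 ± 0.24 and −0.42 ± 0.46 (adjusted p = 0.95 and 0.7).

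Some genes of cholesterol synthesis had negative differences. Of 23 tested genes 8 had a negative difference (2.27% of all genes) and 0 a positive one (2.38%), with a median of −0.32. UOD was lower than contra in 18 (18.6%) and higher in 1 (16%), while KO was lower than WT in 13 (18.6%) and higher in 3 (17.8%). Summed FPKM lay between 807 and 864 in UOD, against 1141 and 1194 in contra. It lay between 978 and 1101 in Nell2 KO, against 1152 and 1174 in WT. With 1 library left out the negative count lay between 6 and 9, and with sham in place of contra it was 15.

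Cyp51, which demethylates lanosterol, was at 18.4, 20.04 and 20.4 FPKM in UOD, against 40.4, 43.2 and 38.8 FPKM in contra. Cyp51 in Nell2 KO was at 30.8, 31.8 and 35.7 FPKM, against 41.3, 43.1 and 41.0 FPKM in WT. The KO values lay between those of UOD and of both controls, and the difference was −0.70 ± 0.09 (adjusted p = 0.00018).

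Idi1, an isoprenoid isomerase, had a difference of −0.55 ± 0.10 (adjusted p = 0.0042). Nsdhl, a sterol dehydrogenase, had one of −0.40 ± 0.08 (adjusted p = 0.0087). Insig1, which holds the sterol sensor in the endoplasmic reticulum, had one of −0.44 ± 0.09 (adjusted p = 0.0054). Hsd17b7, which also acts in sterol synthesis, had one of −0.65 ± 0.14 (adjusted p = 0.01) and was not called with the replicate block in both pairs (adjusted p = 0.062). Sqle, the epoxidase of squalene, and Hmgcs1, a synthase early in the pathway, were called in 16 and 15 of 23 alternatives. Fdps, the most abundant member, was at 158, 178 and 159 FPKM in UOD, against 185, 171 and 168 FPKM in contra, and its difference was not called (−0.25 ± 0.10, adjusted p = 0.18).

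Hmgcs1 is shown because its window was the only one of 16 in the pathway to hold TCACNCCAC, a sterol regulatory element. The 150 bases before its start, from RefSeq on GRCm38.p6, lie at chr13:119690201-119690350 on the plus strand, with the match in capitals beginning 137 bases before the start.
Hmgcs1: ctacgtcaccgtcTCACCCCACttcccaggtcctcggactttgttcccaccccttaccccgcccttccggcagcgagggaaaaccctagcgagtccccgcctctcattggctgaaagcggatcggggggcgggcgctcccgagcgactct
Only 16 of 23 pathway genes had a window, under the 80% needed, so a share for this set is void. Hmgcs1 itself was at 67.4, 72.3 and 66.7 FPKM in UOD, against 74.1, 76.7 and 76.5 FPKM in contra. In Nell2 KO it was at 80.9, 82.6 and 96.4 FPKM, against 71.5, 76.5 and 76.3 FPKM in WT, so KO lay above WT and UOD below contra without overlap.

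Genes of MHC class II antigen presentation, by which phagocytes and dendritic cells display peptides to T cells, were counted next. Of 9 tested genes 4 were positive (2.38% of all genes) and 0 negative (2.27%), with a median of 0.94. UOD was higher than contra in 6 (16%) and lower in 1 (18.6%). KO was lower than WT in 2, near the 18.6% of all genes. The count was 3 when any 1 library other than UOD replicate 3 was left out, since H2-Aa then lost its call.

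Cd74, the invariant chain that guides class II molecules, was at 146, 146 and 129 FPKM in UOD, against 97.9, 83.8 and 111 FPKM in contra. In Nell2 KO Cd74 was at 63.8, 63.5 and 69.5 FPKM, against 98.8, 94.2 and 80.3 FPKM in WT. It was called higher in UOD and lower in KO, neither pair overlapping, with a difference of 1.003 ± 0.212 (adjusted p = 0.011). H2-Eb1, a class II beta chain, was at 33.5, 34.6 and 30.3 FPKM in UOD, against 21.4, 16.9 and 21.1 FPKM in contra. H2-Eb1 in Nell2 KO was at 17.6, 17.3 and 18.1 FPKM, against 25.4, 22.2 and 20.5 FPKM in WT, with a difference of 1.09 ± 0.24 (adjusted p = 0.016).

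H2-Aa, a class II alpha chain, was at 55.8, 58.4 and 45.4 FPKM in UOD, against 32.8, 28.5 and 35.5 FPKM in contra. H2-Aa in Nell2 KO was at 34.7, 31.9 and 34.8 FPKM, against 44.7, 41.2 and 41.3 FPKM in WT. Its difference of 1.04 ± 0.28 lay at the threshold (adjusted p = 0.049, up to 0.115 over the alternatives). H2-DMa, which helps to load peptides, differed from these in being lower in both tissues and also lower in contra than in WT. It was at 10.1, 10.5 and 10.04 FPKM in UOD, against 14.0, 15.2 and 12.3 FPKM in contra. In Nell2 KO H2-DMa was at 9.65, 8.89 and 9.71 FPKM, against 22.4, 23.0 and 24.1 FPKM in WT. With sham in place of contra it was not called (adjusted p = 0.0681). H2-DMb2, a class II gene outside the list, was also lower in both tissues. It was at 2.36, 2.38 and 1.47 FPKM in UOD, against 46.2, 48.3 and 48.4 FPKM in contra. In Nell2 KO H2-DMb2 was at 0.891, 0.976 and 0.124 FPKM, against 76.8, 73.2 and 73.6 FPKM in WT.

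The windows of H2-Aa and H2-Eb1 are shown because both hold CTGATTGG, the core of the Y box of class II promoters. The 150 bases before the start, from RefSeq on GRCm38.p6, lie at chr17:34287824-34287973 on the minus strand for H2-Aa and at chr17:34305717-34305866 on the plus strand for H2-Eb1, with the match in capitals.
H2-Aa: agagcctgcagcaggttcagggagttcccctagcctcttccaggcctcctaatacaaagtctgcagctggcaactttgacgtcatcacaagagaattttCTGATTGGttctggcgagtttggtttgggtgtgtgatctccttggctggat
H2-Eb1: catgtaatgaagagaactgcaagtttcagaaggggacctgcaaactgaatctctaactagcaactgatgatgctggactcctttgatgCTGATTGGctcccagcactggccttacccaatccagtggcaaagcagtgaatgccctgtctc
The match begins 51 bases before the start of H2-Aa and 62 bases before that of H2-Eb1. Only 6 of the 9 genes had a window, under the 80% needed, so a share is void. The same letters stood in 6.13% of all windows and in 6 of the 16 windows of cholesterol synthesis genes.

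In all 6 motifs were counted in 8 sets of genes, 48 counts, and the sequences above were picked from them. The 4 searched first were TGACGTCA, TCACNCCAC, CCGGAAGT of ETS factors and the palindromic androgen response element, and they gave few matches in any list. TGANNTCA and CTGATTGG were added after that. Windows were found for 78.4% of the tested genes, also under 80%, so the comparison of a list with all windows is void as a check. TGANNTCA stood in 70 of 318 windows of genes with a negative difference, 22.0%, a set that includes the sperm genes called negative. It stood in 41 of 308 windows of genes with a positive one. Only 74.9% of those genes had a window, so a share for them is void. CCGGAAGT stood in 5 of the 318 windows and in 10 of the 308.

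Lyz2, the lysozyme of phagocytes, was at 83.0, 81.04 and 81.4 FPKM in UOD, against 54.3, 61.9 and 63.4 FPKM in contra. In Nell2 KO Lyz2 was at 37.6, 34.8 and 33.1 FPKM, against 56.3, 48.3 and 44.8 FPKM in WT. It was called in opposite directions, with a difference of 0.95 ± 0.16 (adjusted p = 0.0018). It was the 1 positive call among 12 macrophage and phagocyte markers (2.38% of all genes), whose median was 0.41. Summed FPKM of the 12 lay between 253 and 276 in UOD, against 212 and 245 in contra. It lay between 166 and 188 in Nell2 KO, against 207 and 234 in WT. The sum was thus above its control in UOD and below it in KO without overlap, and its part in the class II differences was not tested. Lgals3, the lectin galectin 3 of macrophages and epithelia, chosen after its values were seen, had a difference of 1.15 ± 0.15 (adjusted p = 0.00016).

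**Figure D4:**
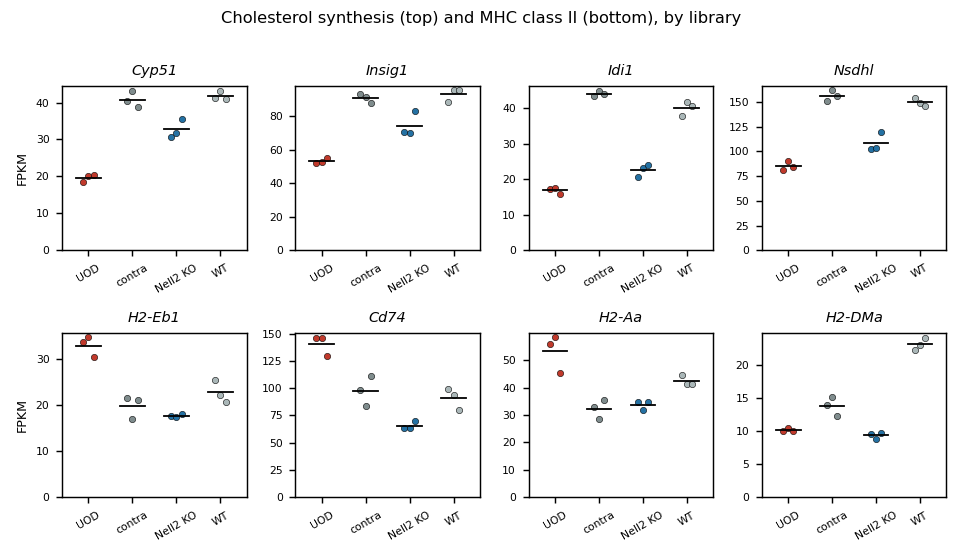
FPKM of 4 cholesterol synthesis genes (top) and 4 MHC class II genes (bottom) in UOD, contra, Nell2 KO and WT, with 1 point for each library, a line at the group mean and axes from 0. Cyp51, Insig1, Idi1 and Nsdhl are lowest in UOD, whereas H2-Eb1, Cd74 and H2-Aa are highest in UOD and H2-DMa is highest in WT.

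Further genes with changes in opposite directions were moderate in size. Srd5a2, the 5α-reductase that makes dihydrotestosterone, was at 247, 220.5 and 207 FPKM in UOD, against 179.9, 181 and 178 FPKM in contra. In Nell2 KO Srd5a2 was at 167, 136 and 155 FPKM, against 186, 177 and 203 FPKM in WT. Neither pair overlapped, and the difference was 0.63 ± 0.13 (adjusted p = 0.009). Srd5a1, the isoform of the initial segment, was lower in both and lower in KO than in UOD (difference 1.05 ± 0.16, adjusted p = 0.00074). Cd52, a glycoprotein shed onto sperm, was at 233, 213 and 209 FPKM in UOD, against 299.9, 323 and 310.0 FPKM in contra. In Nell2 KO Cd52 was at 305, 318 and 363 FPKM, against 268, 248 and 268 FPKM in WT, with a difference of −0.84 ± 0.12 (adjusted p = 0.00041).

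Gldn, Kiss1 and Sct were highest in the knockout among the 4 groups. Gldn, which encodes gliomedin, a cell adhesion protein of peripheral nerve, was at 14.8, 17.2 and 12.5 FPKM in UOD, against 9.26, 11.4 and 10.4 FPKM in contra. Gldn in Nell2 KO was at 33.5, 38.4 and 36.9 FPKM, against 4.25, 5.81 and 4.74 FPKM in WT. Its difference was −2.35 ± 0.20 (adjusted p = 1.3e-06), and contra stood above WT (log2 1.06, adjusted p = 0.00012). Kiss1, the kisspeptin gene, was at 5.73, 8.41 and 11.4 FPKM in UOD, against 14.6, 20.3 and 13.9 FPKM in contra. Kiss1 in Nell2 KO was at 37.4, 53.7 and 49.3 FPKM, against 21.4, 19.2 and 13.5 FPKM in WT. It was lower in UOD and higher in KO without overlap, with a difference of −2.34 ± 0.33 (adjusted p = 0.00078).

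Sct, the gene of the hormone secretin, was at 2.95, 4.42 and 2.08 FPKM in UOD, against 3.95, 6.39 and 4.56 FPKM in contra. Sct in Nell2 KO was at 13.2, 14.0 and 13.3 FPKM, against 5.86, 4.57 and 5.15 FPKM in WT, with a difference of −2.04 ± 0.43 (adjusted p = 0.011). Vip, the vasoactive intestinal peptide gene, ran the other way, being lower in both tissues and lower in UOD. It was at 0, 0 and 0.0497 FPKM in UOD, against 15.04, 16.4 and 18.4 FPKM in contra. In Nell2 KO Vip was at 0.442, 0.123 and 0.164 FPKM, against 6.49, 6.83 and 8.06 FPKM in WT. Tmem252, a membrane protein gene, also fell further in UOD, with a difference of −1.69 ± 0.35 (adjusted p = 0.008). Contra stood above WT in both Vip and Tmem252 (log2 1.21 and 1.12, adjusted p = 0.015 and 0.0079). Rprml and Nrip2, the remaining 2 of the most negative genes, were higher in KO alone and were called in 17 and 13 of 23 alternatives.

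Of 15 tested hypoxia genes 3 had a negative difference (2.27% of all genes) and 0 a positive one, in every fit with 1 library left out. Ldha, a lactate dehydrogenase, was at 129, 134 and 129 FPKM in UOD, against 112, 99.1 and 105 FPKM in contra. In Nell2 KO Ldha was at 169, 169 and 163 FPKM, against 96.7, 88.3 and 95.9 FPKM in WT, with a difference of −0.52 ± 0.08 (adjusted p = 0.00054). Vegfa, the endothelial growth factor, was called lower in UOD alone, at 11.6, 12.3 and 18.5 FPKM, against 38.5, 35.9 and 36.8 FPKM in contra. Vegfa in Nell2 KO was at 36.0, 33.6 and 37.1 FPKM, against 48.0, 44.9 and 43.8 FPKM in WT, with a difference of −1.06 ± 0.21 (adjusted p = 0.0063). Bnip3, a mitochondrial protein of autophagy, had a difference of −0.41 ± 0.09 (adjusted p = 0.012), with contra above WT (log2 0.38, adjusted p = 0.0011).

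Of 21 tested cathepsin and lysosome genes 5 were positive (2.38% of all genes) and 1 negative (2.27%). The positive count lay between 1, without UOD replicate 2, and 6, and it was 0 with sham in place of contra. The negative gene was Ctsl, a cathepsin abundant in the epididymis, at 446, 507 and 482 FPKM in UOD, against 344, 363 and 376 FPKM in contra. In Nell2 KO Ctsl was at 835, 829 and 851 FPKM, against 414, 389.7 and 409 FPKM in WT, with a difference of −0.65 ± 0.08 (adjusted p = 0.00011). Of 24 tested ion and water transport genes 3 were positive (2.38% of all genes) and 2 negative (2.27%). Cftr, the chloride channel of cystic fibrosis, had a difference of 1.02 ± 0.17 (adjusted p = 0.0016), and Car2, a cytosolic carbonic anhydrase, one of 1.06 ± 0.15 (adjusted p = 0.00048). Both were also lower in contra than in WT (log2 −0.63 and −0.64, adjusted p = 0.0029 and 0.0011).

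Of 27 tested WAP and Kazal protease inhibitor genes 3 were negative and 2 positive, and of 21 tested ADAM protease genes 2 were negative and 1 positive, against 2.27% negative and 2.38% positive over all genes. Of 23 cell cycle genes 20 were lower in UOD and 18 in KO (18.6% of all genes in each), with 0 called for the difference and a median of −0.10. Of 30 androgen response genes 1 was positive, near the 2.38% of all genes. Of 16 glutathione peroxidase and gamma-glutamyl transferase genes 3 were negative (2.27% of all genes). The count was 0 without contra replicate 2, UOD replicate 3, WT replicate 2, Nell2 KO replicate 1 or Nell2 KO replicate 3. Markers of cilia, smooth muscle, fibroblasts, endothelium and adipocytes had 0 calls in either direction. Their median differences were 0.55, 0.030, 0.034, 0.32 and 0.96 in that order, so a lack of calls does not mean equal changes. Clear and narrow cell markers had 1 positive (2.38% of all genes) and 1 negative (2.27%) among 10. Basal cell markers had 1 positive among 9, and T and NK cell markers 1 positive among 12. That gene was Klrb1c, a receptor known from NK cells, at 4.55, 4.59 and 3.47 FPKM in UOD, against 142, 144 and 151 FPKM in contra. Cd3e, a defining T cell gene, stood below 1 FPKM in every UOD and contra library.

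**Figure D5:**
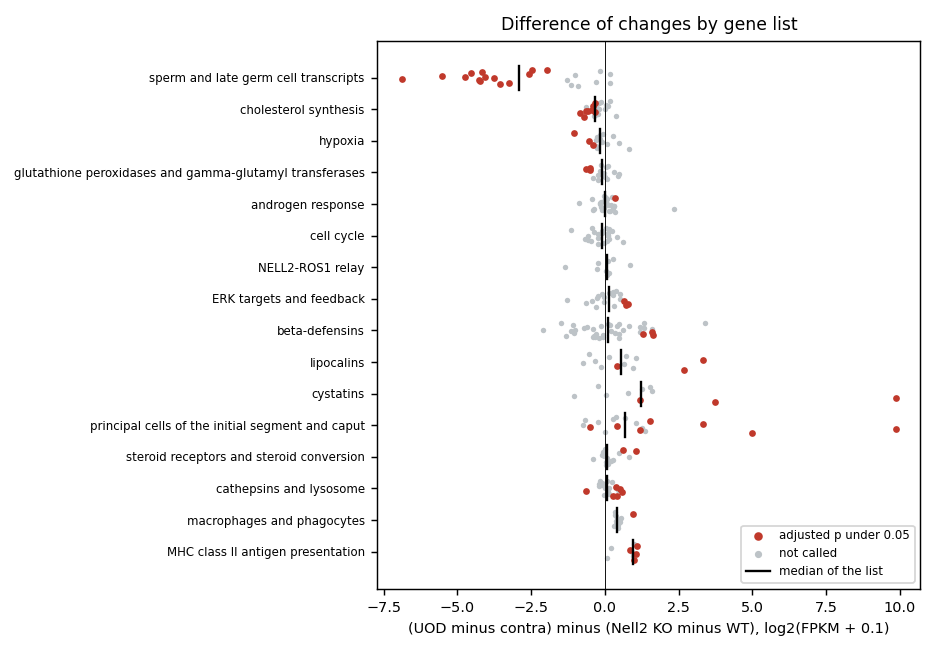
Difference of changes in log2(FPKM + 0.1) for the tested members of 16 gene lists, with red points for genes called at an adjusted p under 0.05, grey points for the rest and a bar at the median of each list. Sperm transcripts lie far to the left, with a median of −2.92, and the cystatin and principal cell lists reach farthest to the right.

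The controls differed from each other, which enters every difference of changes. Contra differed from WT in 1882 genes, 10.9% of those tested, 1017 lower (5.88%) and 865 higher (5%), and contra from sham in 2186, 12.6%, with 1036 lower (5.99%) and 1150 higher (6.65%). UOD differed from Nell2 KO directly in 3294, 19%, with 1726 lower (9.98%) and 1568 higher (9.06%). Of the 804 genes called for the difference of changes, 642 were also called between UOD and KO and 271 between contra and WT, 134 of them in both. H2-Ea-ps, a class II pseudogene, was at 30.5, 33.5 and 26.3 FPKM in UOD, against 19.96, 16.8 and 23.6 FPKM in contra, and was listed at 0 in all 6 Nell2 KO and WT libraries. Gm15698 was likewise above 0 in the operated mice and at 0 in all 6. Atp1b1, the beta subunit of the sodium pump, was at 108, 105 and 104 FPKM in UOD, against 129, 126 and 121 FPKM in contra. In Nell2 KO Atp1b1 was at 49.7, 63.4 and 50.5 FPKM, against 44.9, 46.5 and 47.0 FPKM in WT. Pianp also stood higher in contra than in WT (log2 4.55, adjusted p = 5.3e-10). In sham, where both testes were kept, H2-Ea-ps was at 25.9, 19.5 and 16.7 FPKM and Atp1b1 at 149, 155 and 153 FPKM. Contra did not differ from sham by call in H2-Ea-ps (log2 −0.030, adjusted p = 0.95). It was lower than sham in Atp1b1 (log2 −0.28, adjusted p = 0.015). Strain, age and surgery cannot be told apart between these mice and WT, and the part of testis removal was not tested.

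Hbb-bs, a β-globin gene, had a positive difference that its own values limit, and was named by rule as a tested member of the erythrocyte list. It was at 9.20, 9.31 and 8.04 FPKM in UOD, against 0.00445, 0.00431 and 0.00441 FPKM in contra. In Nell2 KO it was at 0.00427, 0.00442 and 0.00439 FPKM, against 0.00447, 0.00466 and 0.00437 FPKM in WT. The 9 low values are nearly constant. Summed FPKM of the erythrocyte markers lay between 40.0 and 51.3 in UOD, against 57.0 and 118 in contra. It lay between 9.37 and 12.9 in Nell2 KO, against 16.4 and 18.2 in WT, so their sum on the operated side lay below its control.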

How the data were processed

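The authors deposited 1 table of normalized FPKM for 24346 genes in 18 libraries, which per the labels were strand-specific mRNA libraries processed on mm10 by TopHat2 2.1.1 and then Cufflinks 2.2.1. The labels and the study's methods name different makers of the RNA extraction kit. FPKM were used as given. Of the genes, 17302 reached 0.1 FPKM in at least 3 libraries, and 7044 were left out, 4620 of them at 0 in every library. Log2(FPKM + 0.1) was fitted with limma 3.58.1 (R 4.3.3) on 6 group means over 18 libraries with 12 residual degrees of freedom and eBayes set to trend and robust. The 4 groups were joined as contrasts of that fit, and p-values were adjusted by Benjamini-Hochberg over all tested genes. Errors of log2 values are standard errors of the fit. Depth is unknown, so no counting interval was given.

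Gene lists and members were chosen with earlier results of these data known, and no list was tested as a set. Genes were named by rule. The rule took the 15 most negative and 15 most positive called genes with at least 10 FPKM in 1 group and 1 sign over all 81 library choices, the most abundant list members, the 10 most abundant genes with opposite calls, the relay genes and 5 genes of contra against WT. Other called list members were chosen after their values were seen. A few genes that the rule names are not reported here. Alternatives were 1 or 0.01 FPKM added, other filters, median-ratio scaling, 12 libraries, eBayes without trend, a replicate block, the removal of each library in turn, sham in place of contra and, added after seeing the data, a correction for transcript length. The fit was tested on simulated data. Gene positions and promoter windows are from RefSeq on GRCm38, read with Python 3.11.15 and pandas 2.3.3; figures were drawn with matplotlib 3.10.9.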

Additional observations from a re-analysis of the deposited data

How the results depend on the processing

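The 804 calls became 865 with 1 FPKM added (765 shared), 751 with 0.01 FPKM, 792 without a filter, 762 with a filter of 1 FPKM, 805 with median-ratio scaling, 956 in the 12 libraries alone (719 shared), 679 without trend and robust settings (618 shared) and 824 after correction for transcript length. Leaving out 1 library gave between 559, without WT replicate 2, and 857, without UOD replicate 3. The negative count then lay between 269 and 418 and the positive count between 285 and 439. With sham in place of contra 2097 genes were called, 1136 negative and 961 positive, of which 571 were among the 804, and 8 signs turned. Lcn2 was among these 8 (log2 −0.0022). The libraries of the sham group had length trends of −0.0602 to −0.119 per log2 unit of transcript length, against −0.0239 to 0.0413 in the 12, and their part in this was not tested.

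Deviations of same-numbered libraries had small correlations, −0.0485 to 0.0308 for UOD and contra and 0.0408 to 0.0757 for Nell2 KO and WT. Libraries with unlike numbers gave −0.0534 to 0.0433 and −0.0735 to 0.0257. The labels do not say that equal numbers mark 1 mouse, so the numbers were not taken as pairs. The replicate block gave 747 calls in both pairs (573 shared) and 848 in UOD and contra alone (658 shared). Contra against WT, at 1882 calls, gave 1040 to 2053 with 1 library left out, 539 to 1112 lower and 496 to 941 higher. Of the 104 named genes with a call, between 81 and 94 kept it when 1 library was left out. With 3 libraries a group and depth unknown, small differences of low genes are not resolved.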

Other observations

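The values of 4 called members of the gene lists were not given above. Wfdc16, a gene of the WAP family of protease inhibitors, was at 62.7, 53.2 and 45.1 FPKM in UOD, against 23.0, 24.99 and 24.8 FPKM in contra. In Nell2 KO Wfdc16 was at 15.9, 17.4 and 21.7 FPKM, against 23.0, 24.4 and 21.6 FPKM in WT, with a difference of 1.46 ± 0.18 (adjusted p = 0.00012). Irf7, a transcription factor of the interferon response, was at 12.0, 12.9 and 14.4 FPKM in UOD, against 9.97, 11.4 and 12.9 FPKM in contra. In Nell2 KO Irf7 was at 25.9, 25.3 and 23.9 FPKM, against 12.3, 10.2 and 14.5 FPKM in WT. It was the 1 negative call among 21 interferon-stimulated genes (2.27% of all genes), with a difference of −0.83 ± 0.17 (adjusted p = 0.008). Car12, a membrane carbonic anhydrase of clear and narrow cells, was higher in both tissues and more so in the knockout. It was at 24.2, 28.03 and 28.8 FPKM in UOD, against 17.3, 18.3 and 19.9 FPKM in contra, and at 47.2, 44.7 and 50.04 FPKM in Nell2 KO, against 19.2, 19.5 and 20.5 FPKM in WT. Its difference of −0.71 ± 0.15 (adjusted p = 0.008) was not called with sham in place of contra. Krt15, a basal cell keratin, was at 37.9, 42.4 and 44.5 FPKM in UOD, against 33.3, 33.1 and 37.4 FPKM in contra. In Nell2 KO Krt15 was at 5.95, 4.93 and 10.5 FPKM, against 18.7, 18.8 and 21.8 FPKM in WT, and its difference of 1.80 ± 0.44 (adjusted p = 0.031) was called in 12 of 23 alternatives. Irf7, Car12 and Krt15 were named by rule among the most abundant members of their lists, and Wfdc16 was chosen after its values were seen.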
